A study of Mus musculus with 26 samples.

Results

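Visual and auditory thalamic projection neurons were compared: 435 cells labelled from the visual system and 380 labelled from the auditory system, 815 of the 1972 cells of the series. Cells were chosen by the projection named for each in the authors' cell table, without regard to expression. The study marked thalamic neurons of mice by retrograde label, an agent taken up at axon endings and carried back to the cell body, from 1 of 5 cortical systems. Slices were kept in blockers of neuronal activity, thalamic tissue was dissected and dissociated, and fluorescent neurons were picked by hand. Strain and labelling agent are not stated in the labels, and the table marked every animal as male. Both groups shared this preparation, and no group was left unlabelled or untreated. Libraries were made from the 3' end of transcripts and counted by molecular barcodes (UMIs), which count a captured transcript once.

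Visual neurons came from 4 animal identifiers (155, 77, 69 and 134 cells, ages 91, 104, 104 and 69 in a column that names no unit). Auditory neurons came from 5 (73, 76, 84, 74 and 73 cells, ages 104, 104, 81, 81 and 70). All visual cells were on plates 17 to 26, which form sequencing batch 3. Of the auditory cells only the 73 of replicate 5 were in batch 3; replicates 1 and 2 were in batch 1 and replicates 3 and 4 in batch 2. Visual and auditory cells were together on 10 of 10 plates of batch 3, but no sort date held both. Visual replicate 1 and auditory replicate 5 carried the same animal identifier, with ages 21 apart and sort dates 21 days apart, so whether they are 1 animal is unclear. Counts were summed per identifier within each projection, and each sum was 1 replicate. Visual replicates 2 and 3 shared a sort date, as did auditory replicates 1 and 2 and auditory replicates 3 and 4, so each system had 3 sort dates. Values are given below in order of replicate, so the last of 5 auditory values is the auditory sum of batch 3. Visual sums held 4800553 to 13109710 UMIs and auditory sums 4317156 to 12831696.

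Relay neurons of the thalamus release glutamate onto the cortex, and each sensory system has its own first-order nucleus with large, fast-firing cells and its own higher-order nuclei. The auditory thalamus also includes a belt of nuclei around its core whose neurons are known to hold calcium-binding proteins and, in part, neuropeptides. Vision passes through the lateral geniculate nucleus and the lateral posterior nucleus. The labels name no nucleus, so a difference between the systems may be one of nuclei, of cell types or of level per cell. With sums over cells, more cells of a type and more RNA per cell cannot be told apart.

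Both groups carried the markers of thalamic projection neurons. The summed level of 10 such markers was 11690 to 12970 CPM (a gene's UMIs over all gene UMIs of the sum, on the usual counts-per-mega-UMI scale) in visual sums and 10900 to 14430 CPM in auditory sums. Astrocyte markers summed to 189 to 216 against 155 to 257 CPM, oligodendrocyte markers to 25 to 388 against 51.6 to 416 CPM, and microglia markers to 119 to 169 against 148 to 183 CPM. Markers of GABA neurons summed to 0.763 to 10.0 CPM in visual sums and reached 72.0 CPM in auditory replicate 5, while Slc32a1, the vesicular GABA transporter, was at 0 in every sum of both groups. Median depth per cell was 69230 ± 10360 UMIs in visual sums (mean ± SD, n = 4) and 89470 ± 45960 in auditory sums (n = 5), and did not pass an exact two-sided permutation test (p = 0.524; the smallest p this design allows is 0.0159).

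The comparison asked which genes distinguish neurons that carry visual signals to the cortex from those that carry auditory signals. Visual neurons were higher in Rgs4, Sparcl1, Cdh8, Prkcd, the glutamate receptor genes Grin2a and Grin2b and the neurofilament genes Nefh and Nefm. Auditory neurons were higher in the peptide genes Nts, Cartpt, Adcyap1, Crh, Nppc and Scg2 and in the transcription factor genes Gbx2 and Etv1. Of 17211 genes tested over the 21 sums of all 5 systems with batch in the model, 69 were higher in visual sums (0.401%) and 93 lower (0.540%) in edgeR's quasi-likelihood test with Benjamini-Hochberg adjustment at 0.05. The median log2 fold change over all genes tested was 0.03, and 9063 of the 17211 had a fold above 0. Counts of called genes on each list below are to be read beside the shares of 0.401% and 0.540%. Counting only whether the 4 visual and 5 auditory sums overlapped in CPM, 500 genes of the 17211 had every visual sum above every auditory sum (2.91%) and 655 had every visual sum below (3.81%). Of the called genes, 56 of the 69 and 80 of the 93 did not overlap.

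**Figure D1:**
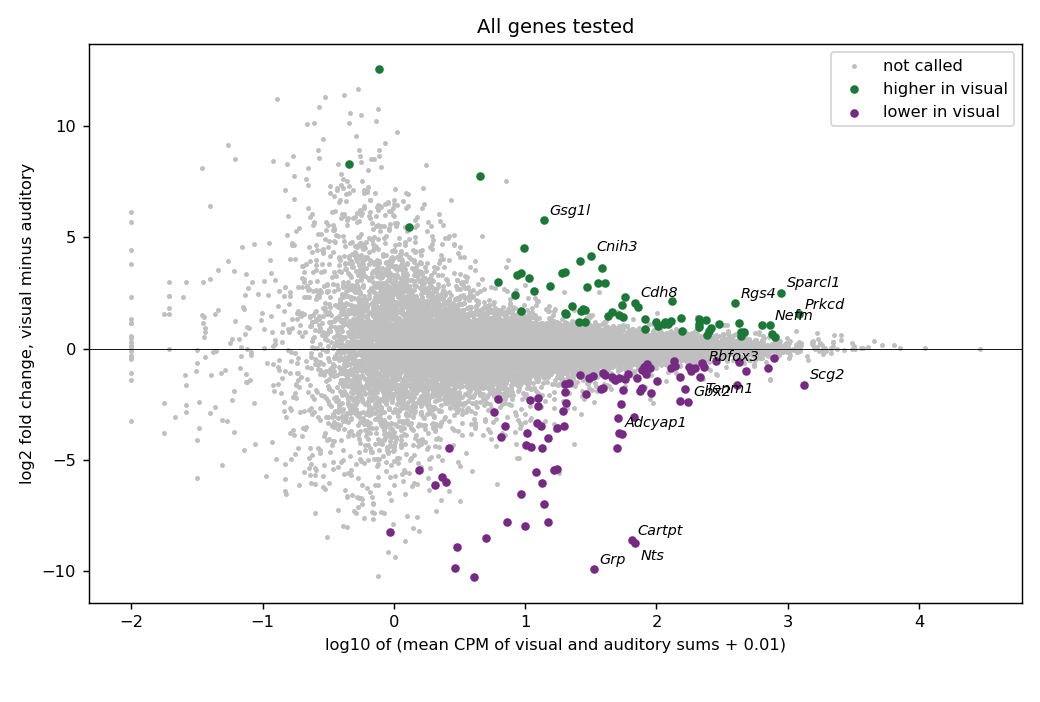
Log2 fold change (visual minus auditory, edgeR) on the y axis against log10 of the mean CPM of both groups plus 0.01 on the x axis, 1 point per gene tested. Green points are the 69 genes called higher in visual sums, purple points the 93 called lower; Sparcl1, Prkcd and Scg2, the called genes with the highest group means, lie at folds of 2.53, 1.55 and -1.62.

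Within batch 3 alone, the 4 visual sums were set against auditory replicate 5, with the motor and prefrontal sums of the batch in the fit. There 98 of 17164 genes were higher in visual sums (0.571%) and 68 lower (0.396%) in edgeR's quasi-likelihood test, which assumes that the single auditory sum varies like the sums of the other systems. The calls of both fits shared 79 genes, 48.8% of the calls on all sums and 47.6% of those in batch 3. Each of the 162 genes called on all sums had the same sign in batch 3, and in each of them auditory replicate 5 lay outside the range of the 4 visual sums on the called side. Auditory replicate 5 enters both fits, so this is a description of the called genes and no independent check. Over all genes, 8842 had auditory replicate 5 outside the visual range. Among the 63 genes named below, some did not pass in the batch 3 fit. Of the higher genes these were Gsg1l, Bcan, Ccdc141, Sema7a, Fam19a2, Sema6d, Lrrtm2, Epha7, Lamb1 and Hs6st2. Of the lower genes they were Otof, Crh, Pth2r, Pth2, Nppc, Tacr3, Gbx2, Kcnk2, Kcnd2, Nrgn, Dgkg and Col24a1. Without auditory replicate 5 the fit on all sums called 43 genes, without visual replicate 1 it called 76, and without both sums of the shared identifier 25. Of the 63 genes named below, 42, 23 and 51 lost their call in these fits. With cells summed per sort date 110 genes were called, and 16 of the 63 were not: Tmem132c, Cwh43, Ccdc141, Sema6d, Pth2r, Pth2, Nefh, Nefm, Nppc, Etv1, Kcnd2, Grin2b, Necab3, Nrgn, Col24a1 and Lamb1 (edgeR adjusted p 0.051 to 0.15). Without visual replicate 2 the batch 3 fit called 78 genes, and with visual and auditory sums alone 98, an alternative chosen after the data were seen.

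**Figure D2:**
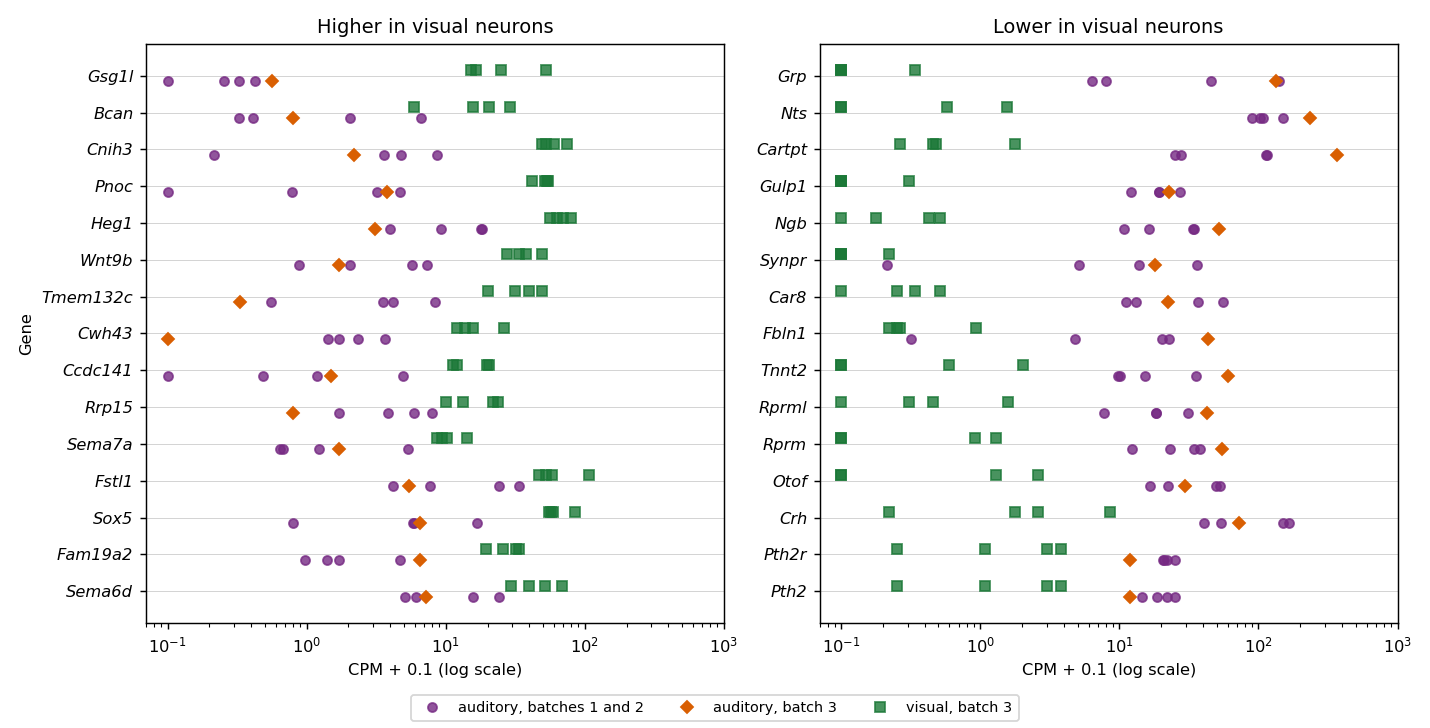
CPM plus 0.1 on a log axis in each sum for the 15 genes with the largest fold higher (left) and the 15 with the largest fold lower (right) in visual neurons, among called genes of at least 10 CPM. Squares are the 4 visual sums, circles the auditory sums of batches 1 and 2 and the diamond auditory replicate 5 of batch 3; groups overlap for Bcan, Synpr and Fbln1 and are apart for the other genes shown.

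Neuropeptides, short signalling proteins cut from larger precursors, differed mostly in 1 direction. Of 20 tested genes on a list of peptide precursors and granins, 7 were lower in visual neurons and 1 was higher. Over all genes tested, 0.540% were lower and 0.401% higher. The list had a median log2 fold change of -1.63. In batch 3 alone the list had 7 lower and 1 higher of 21 tested. Promoters or sites of Nts, Adcyap1, Nppc, Cartpt and Scg2 are printed first, because these genes differed in the same direction. Rgs4 is printed as a gene of the opposite direction, and those of Grp, Crh and Pnoc are not printed. Sequences are from RefSeq on GRCm38.p6 and are upstream of the RefSeq start site. The Cartpt and Scg2 sites lie within the GENCODE vM21 genes, which reach to 99901091 and 79440120. Capitals mark TGACGTCA (the cAMP response element, CRE) and its core TGACG, which also lies within TGACGTCA. They also mark the TATA box, spelled TATAAA here. Each motif was searched on both strands.
Nts, chr10:102490487-102490668, minus strand: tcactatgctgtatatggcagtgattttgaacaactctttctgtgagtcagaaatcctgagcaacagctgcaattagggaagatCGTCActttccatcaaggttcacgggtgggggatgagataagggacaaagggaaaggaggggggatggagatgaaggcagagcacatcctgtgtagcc
Adcyap1, chr17:93198767-93199016, plus strand: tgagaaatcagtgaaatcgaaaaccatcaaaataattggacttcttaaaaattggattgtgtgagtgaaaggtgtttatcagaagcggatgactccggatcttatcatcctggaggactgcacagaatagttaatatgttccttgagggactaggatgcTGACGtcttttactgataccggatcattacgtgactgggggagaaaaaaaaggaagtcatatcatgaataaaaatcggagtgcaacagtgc
Nppc, chr1:86670574-86670823, minus strand: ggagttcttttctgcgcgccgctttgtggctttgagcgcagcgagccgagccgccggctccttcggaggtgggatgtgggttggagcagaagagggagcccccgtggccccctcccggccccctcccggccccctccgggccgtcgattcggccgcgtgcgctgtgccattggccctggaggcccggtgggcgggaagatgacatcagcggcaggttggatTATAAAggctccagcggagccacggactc
Rgs4, chr1:169747643-169747892, minus strand: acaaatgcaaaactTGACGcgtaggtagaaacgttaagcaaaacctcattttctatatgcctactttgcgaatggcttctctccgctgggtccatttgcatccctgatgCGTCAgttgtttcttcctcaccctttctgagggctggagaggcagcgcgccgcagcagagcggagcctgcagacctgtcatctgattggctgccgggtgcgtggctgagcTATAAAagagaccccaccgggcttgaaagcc
Cartpt site, chr13:99900777-99900806, minus strand: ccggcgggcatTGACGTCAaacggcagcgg
Scg2 site, chr1:79440076-79440105, minus strand: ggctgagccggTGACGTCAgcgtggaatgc
The full CRE lay 112 to 105 bases before the RefSeq start of Cartpt and 68 to 61 bases before that of Scg2. Over 27025 gene promoters of 250 bases, 1.62% held TGACGTCA, 17.9% held TGACG and 12.97% held TATAAA. Among the genes named here with a promoter in the table, TGACG was in 7 of 26 that were lower and 2 of 22 that were higher in visual neurons. A match is a run of letters and was not measured as a binding site.

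Nts encodes neurotensin. It measured 0, 0, 1.46 and 0.480 CPM in visual sums and 90.0, 149, 107, 103 and 234 CPM in auditory sums. Every auditory sum was above every visual sum, and the log2 fold change was -8.76 ± 0.86 (SE, n = 4 and 5; edgeR adjusted p = 5e-06). Nts was detected, with at least 1 UMI, in 18.4% of auditory cells and 0.920% of visual cells (16.1% and 0.690% with every cell thinned to 20000 UMIs).

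Cartpt, the precursor of the peptide CART, measured 0.381, 0.164, 1.67 and 0.360 CPM in visual sums. In auditory sums it measured 25.1, 27.5, 113, 115 and 367 CPM, so replicate 5 stood well above the other auditory sums. The groups did not overlap (log2 fold change -8.62 ± 1.15, edgeR adjusted p = 0.00028).

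Grp, gastrin-releasing peptide, gave 2 UMIs in all visual cells and 1959 in all auditory cells, a pooled ratio of 866 with a 95% counting interval of 239 to 7155. Its auditory sums ranged from 6.24 to 141 CPM, with 133 CPM in replicate 5 (edgeR adjusted p = 0.0028). Only 3.68% of auditory cells had a UMI of Grp, so few cells carried the group value, and 1 cell held 44.1% of the auditory UMIs.

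Crh, corticotropin-releasing hormone, measured 2.52, 8.50, 1.67 and 0.120 CPM in visual sums and 53.6, 40.8, 166, 151 and 72.3 CPM in auditory sums (edgeR adjusted p = 0.0054, and 0.066 with DESeq2). Adcyap1, which encodes PACAP, measured 3.89, 10.5, 20.2 and 8.99 CPM against 54.3, 61.5, 103, 121 and 126.2 CPM (edgeR adjusted p = 0.0074). Nppc, C-type natriuretic peptide, measured 1.37, 9.16, 7.50 and 23.9 CPM against 95.6, 81.1, 70.8, 75.9 and 131 CPM (edgeR adjusted p = 0.0058). All 3 genes were free of overlap between the groups.

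Scg2 encodes secretogranin II, a protein of dense-core vesicles that is also cut into peptides. It was the most abundant of the lower genes, at 422, 502, 704 and 828 CPM in visual sums and 1964, 2055, 2043, 1881 and 2389 CPM in auditory sums. The log2 fold change was -1.62 ± 0.20 (edgeR adjusted p = 0.00014) without overlap. Unlike the genes above it was detected in 98.6% of visual cells and in 380 of 380 auditory cells, so its difference lay in the level and not in the share of cells with a UMI.

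Pnoc, the precursor of nociceptin, was the exception in direction. Its visual sums held 54.1, 53.8, 51.5 and 41.6 CPM and its auditory sums 0.687, 3.12, 0, 4.61 and 3.71 CPM (log2 fold change 3.95 ± 0.79, edgeR adjusted p = 0.014). A UMI was found in 37.5% of visual and 2.11% of auditory cells (28.5% and 1.32% thinned). Of the abundant members, Cck (1920 against 1215 CPM, edgeR adjusted p = 0.43), Chga (466 against 427 CPM, adjusted p = 0.73) and Chgb (733 against 860 CPM, adjusted p = 0.13) did not pass in edgeR. DESeq2 called Chgb.

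Without auditory replicate 5 the edgeR adjusted p was 0.16 for Nts, 0.13 for Grp, 0.25 for Crh, 0.072 for Adcyap1, 0.17 for Nppc and 0.089 for Pnoc, whereas Cartpt and Scg2 passed without any single sum. Without both sums of the shared identifier Cartpt missed as well (0.12). In that sum the authors' auditory cluster Aud_3, which held 842 CPM of Nts, 573 of Cartpt, 355 of Grp, 412 of Crh and 449 of Adcyap1, made up 24 of 73 cells, against 8 of 73, 6 of 76, 14 of 84 and 11 of 74 in auditory replicates 1 to 4. Markers of GABA neurons were also highest in that sum, and 0 auditory cells held 3 or more of them. Summed markers of habenula neurons were highest there too, at 104 CPM. The auditory median was 55.3 CPM, and visual sums held 11.7 to 37.3 CPM. Of their 10 genes, Slc5a7 was at 0 in both groups. Of 6 tested on all sums, 4 had a fold above 0, higher in visual neurons, against 9063 of all 17211 genes, and 0 were called. Against auditory replicate 5 in batch 3 their median log2 fold change was 1.561, and that of all genes was 0.08. On all sums, 1 of them had every visual sum below every auditory sum, against 655 of all 17211 genes. The part of Aud_3 cells, and of any GABA or habenula neurons, in the peptide values was not tested.

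**Figure D3:**
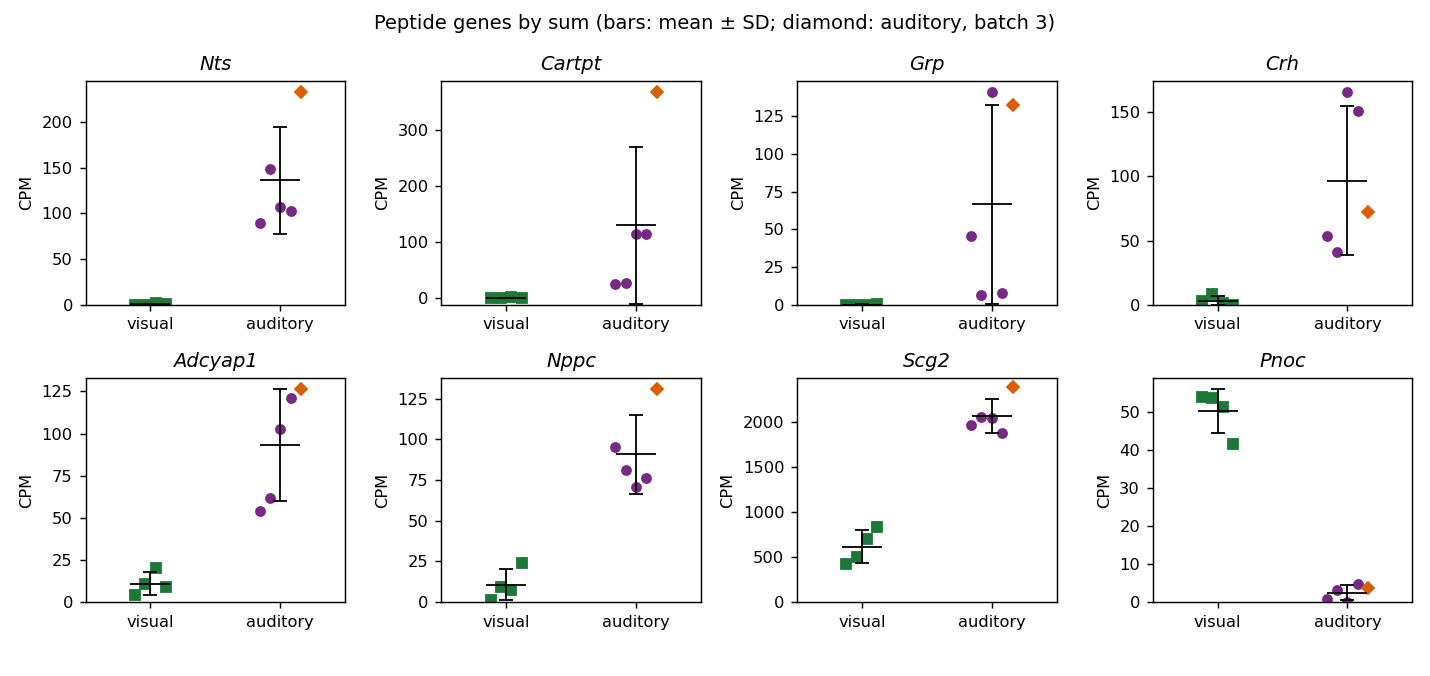
CPM of 8 called peptide and granin genes in each visual sum (squares) and auditory sum (circles for batches 1 and 2, diamond for replicate 5 of batch 3), with mean and SD as bars. Pnoc is higher in all 4 visual sums, and the other 7 genes are higher in all 5 auditory sums.

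On a list of 13 midline and intralaminar genes, 3 were lower and 0 higher, and those 3 were Nts, Cartpt and Grp again.

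Receptors for peptides gave fewer calls. Of 18 tested, 1 was lower and 0 were higher in visual neurons, with a median log2 fold change of -1.92. Tacr3, the neurokinin B receptor, had 2 UMIs in visual and 96 in auditory cells, a pooled ratio of 42.4 (95% counting interval 11.4 to 355; edgeR adjusted p = 0.044). Its call was lost without any of 7 of the 9 sums, with adjusted p of 0.058 to 0.29: auditory replicates 1, 3 and 5 and all visual replicates. Ntsr1, a neurotensin receptor, measured 0, 0, 0 and 0.360 CPM in visual sums and 2.52 to 10.5 CPM in auditory sums. It did not pass in edgeR (adjusted p = 0.066) but was called by DESeq2. Pth2, a ligand of the parathyroid hormone family, and its receptor gene Pth2r measured 1.94 ± 1.66 CPM each in visual sums against 18.4 ± 5.36 and 20.02 ± 4.93 CPM in auditory sums, with 11.8 CPM of each in auditory replicate 5. The counts of both were equal in 86 of the 95 cells that held either, and no source used here states how reads of overlapping or similar genes were counted, so these 2 values are uncertain and may be 1 signal. The edgeR adjusted p was 0.034 for Pth2 and 0.03 for Pth2r; without single sums it reached 0.1 for Pth2 (lost for auditory replicates 1, 2 and 3 and visual replicates 1, 2 and 3) and 0.087 for Pth2r (lost for visual replicates 1 and 2).

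Other genes with large folds lower in visual neurons were of mixed kinds. Car8, a protein that binds the IP3 receptor, measured 0.153, 0, 0.417 and 0.240 CPM in visual sums and 13.1, 10.99, 55.1, 36.4 and 22.2 CPM in auditory sums (log2 fold change -6.98 ± 0.82, edgeR adjusted p = 2.2e-05). Its pooled levels were alike in the authors' auditory clusters, at 23.2, 23.4 and 25.01 CPM in Aud_1, Aud_2 and Aud_3. Otof, which encodes otoferlin, the calcium sensor of release in inner hair cells, measured 0, 0, 2.5 and 1.199 CPM against 22.2, 16.5, 53.0, 49.4 and 29.7 CPM (edgeR adjusted p = 0.011).

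Ngb, the oxygen-binding protein neuroglobin, measured 0.0763, 0.327, 0.417 and 0 CPM in visual sums and 34.1, 10.8, 33.9, 16.2 and 51.9 CPM in auditory sums (edgeR adjusted p = 2.2e-05). Gulp1, an adaptor of engulfment, had 1 UMI in visual and 751 in auditory cells, a pooled ratio of 664 (95% counting interval 119 to 26260; edgeR adjusted p = 0.00023). Synpr, the vesicle protein synaptoporin, had 1 and 428 UMIs, a pooled ratio of 378 (67.5 to 14980; edgeR adjusted p = 0.014), but auditory replicate 1 held 0.115 CPM and overlapped the visual sums. Synpr was found in 17 of 380 auditory cells, with 48.1% of the auditory UMIs in 1 cell (85.7% in replicate 5). Fbln1, a matrix glycoprotein, also overlapped, at 0.120 to 0.833 against 0.220 to 43.1 CPM (edgeR adjusted p = 0.00023).

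Tnnt2, a troponin T, measured 0, 0.491, 0 and 1.92 CPM against 9.96, 35.3, 9.72, 15.1 and 60.7 CPM (edgeR adjusted p = 0.012). Rprm and Rprml, related genes of the reprimo family, were at 0.504 ± 0.603 and 0.510 ± 0.658 CPM in visual sums against 32.4 ± 16.1 and 23.5 ± 13.5 CPM in auditory sums (edgeR adjusted p = 0.0066 and 0.0082), with 54.9 and 42.6 CPM in auditory replicate 5. Their counts were equal in 3 of 78 cells with either gene and both were found in 37. Without auditory replicate 5 the edgeR adjusted p was 0.14 for Otof, 0.37 for Synpr, 0.056 for Fbln1, 0.25 for Tnnt2, 0.72 for Rprm and 0.31 for Rprml; Synpr also missed without visual replicate 1 (0.062). Car8, Ngb and Gulp1 passed without any single sum, and Gulp1 missed without both sums of the shared identifier (edgeR adjusted p = 0.063).

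Of 36 tested genes for glutamate receptors and their auxiliary subunits, 4 were higher and 0 lower in visual neurons (all genes tested: 0.401% and 0.540%). A fold above 0 was found in 17 of the 36, against 9063 of all 17211. The median log2 fold change of the list was -0.20. Gsg1l is an auxiliary subunit that dampens AMPA receptor currents. It measured 25.02, 16.5, 15.2 and 53.0 CPM in visual sums and 0.229, 0.156, 0.324, 0 and 0.463 CPM in auditory sums (log2 fold change 5.78 ± 0.93, edgeR adjusted p = 0.0017), the largest fold among the named higher genes.

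Cnih3, a cornichon that slows AMPA receptor closing, measured 60.2, 52.7, 74.8 and 49.3 CPM in visual sums and 0.115, 8.57, 4.70, 3.51 and 2.09 CPM in auditory sums (log2 fold change 4.15 ± 0.59, edgeR adjusted p = 0.00069). A UMI of Cnih3 was found in 47.4% of visual and 5.26% of auditory cells (35.4% and 2.63% thinned). Both genes passed without any single sum, but Gsg1l missed without both sums of the shared identifier (edgeR adjusted p = 0.053) and Cnih3 with visual and auditory sums alone and the batch term (0.14).

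The NMDA receptor genes Grin2a and Grin2b were higher by less. Grin2a measured 310, 314, 299 and 238 CPM against 108, 163, 118, 155 and 113 CPM (log2 fold change 1.13 ± 0.19, edgeR adjusted p = 0.004). Grin2b measured 557, 519, 548 and 529 CPM against 377, 399, 268, 327 and 308 CPM (0.77 ± 0.16, adjusted p = 0.016). Neither gene overlapped between groups. The shared subunit gene Grin1 measured 363 against 273 CPM (edgeR adjusted p = 0.32), and the AMPA receptor gene Gria2 316 against 446 CPM (adjusted p = 0.11). DESeq2 called Gria2. Without auditory replicate 5 the edgeR adjusted p was 0.077 for Grin2a and 0.15 for Grin2b, and without visual replicate 1 it was 0.059 for Grin2b.

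Of 17 GABA receptor genes, 1 was higher and 0 lower in visual neurons (all genes tested: 0.401% and 0.540%), with a median log2 fold change of -0.38. That was Gabra4, the alpha-4 subunit of extrasynaptic receptors in the thalamus, at 614, 561, 491 and 532 CPM in visual sums and 278, 252, 325, 493 and 178 CPM in auditory sums. Auditory replicate 4 overlapped the lowest visual sum, and auditory replicate 5 was the lowest (log2 fold change 1.158 ± 0.20, edgeR adjusted p = 0.0054; 0.1 without auditory replicate 5). Gabrd, the delta subunit that pairs with it, measured 310 against 182 CPM and did not pass (edgeR adjusted p = 0.21). Of 22 receptor genes for monoamines and acetylcholine, 0 passed in edgeR and DESeq2 called 0. In edgeR 6 of them had an unadjusted p under 0.05, against 2048 of all 17211 genes tested. Among the 22 receptor genes Htr2c, a serotonin receptor, measured 37.7 ± 23.1 against 142 ± 44.0 CPM (edgeR adjusted p = 0.13).

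Of 10 genes on a list of core relay anchors and core genes, 2 were higher and 0 lower in visual neurons, with a median log2 fold change of 0.73. Both were neurofilament genes, which encode the cables of large axons. Nefh measured 385, 353, 256 and 273 CPM in visual sums and 233, 157, 138, 176 and 106 CPM in auditory sums (log2 fold change 1.30 ± 0.26, edgeR adjusted p = 0.014; 0.17 without auditory replicate 5). Nefm measured 1056, 1049, 781 and 912 CPM against 404, 390, 609, 650 and 476 CPM (1.04 ± 0.25, adjusted p = 0.049). The call of Nefm was lost without any sum but visual replicate 3, with edgeR adjusted p of 0.057 to 0.22. Prkcd, a protein kinase C of first-order relay neurons, measured 2127, 1547, 1500 and 1621 CPM against 476, 654, 782, 1407 and 349 CPM without overlap (1.55 ± 0.33, edgeR adjusted p = 0.022; 0.22 without auditory replicate 5 and 0.072 without visual replicate 1).

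Calcium-binding proteins of the calbindin family mark higher-order and belt neurons. Calb1, calbindin, measured 112, 422, 560 and 483 CPM in visual sums and 1071, 1228, 923, 998 and 1138 CPM in auditory sums. The groups did not overlap, but the difference did not pass on all cells (edgeR adjusted p = 0.091). Calb2, calretinin, measured 406 ± 170 against 1056 ± 378 CPM and overlapped (edgeR adjusted p = 0.52). Of 29 genes for calcium binding and calmodulin, 2 were higher (Pcp4l1 and Necab3) and 1 lower (Nrgn) in visual neurons. Over all genes tested these shares were 0.401% and 0.540%.

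Pcp4l1, a small relative of the calmodulin regulator Pcp4, measured 1024, 854, 803 and 807 CPM against 307, 419, 366, 533 and 400 CPM (log2 fold change 1.07 ± 0.23, edgeR adjusted p = 0.023; 0.17 without auditory replicate 5, 0.078 without visual replicate 1). Necab3 measured 58.4, 70.5, 68.7 and 47.1 CPM against 42.4, 60.6, 54.3, 39.5 and 15.8 CPM and overlapped (edgeR adjusted p = 0.02; 0.18 without auditory replicate 5). Its log2 fold change of 1.49 fell to 0.55 without the batch term (edgeR adjusted p = 0.42). Nrgn, neurogranin, measured 0.229, 28.0, 22.9 and 15.95 CPM against 75.7, 43.3, 165, 106 and 206 CPM without overlap (edgeR adjusted p = 0.049). The call of Nrgn was lost with DESeq2 (adjusted p 0.1) and without auditory replicate 1, 3, 4 or 5 or visual replicate 2, 3 or 4 (edgeR adjusted p 0.055 to 0.73).

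Among ion channel genes, 1 of 30 for subthreshold and burst channels was higher and 2 were lower in visual neurons. On the list of fast-firing genes, which shares Nefh and Nefm with the list above, those 2 of 19 were higher. Over all genes tested, 0.401% were higher and 0.540% lower. An unadjusted edgeR p under 0.05 was found in 14 of the 30 and 11 of the 19, against 2048 of all 17211. DESeq2 called 5 and 6 of these lists. Kcnj3, a G-protein-gated potassium channel, measured 191, 205, 164 and 166 CPM in visual sums and 58.3, 42.6, 106, 119 and 68.1 CPM in auditory sums (log2 fold change 1.24 ± 0.20, edgeR adjusted p = 0.0028; 0.06 without auditory replicate 5). Kcnk2, the leak channel TREK-1, measured 7.17, 7.69, 9.58 and 9.23 CPM against 27.5, 16.8, 35.97, 47.2 and 31.5 CPM (-1.94 ± 0.39, adjusted p = 0.015; 0.11 without auditory replicate 5, 0.062 without visual replicate 1). Kcnd2, an A-type potassium channel, measured 210, 209, 218 and 277 CPM against 274, 328, 356, 395 and 325 CPM, with visual replicate 4 above the lowest auditory sum (edgeR adjusted p = 0.043). Its call was lost without auditory replicate 2, 3, 4 or 5 or visual replicate 1, 2 or 3 (edgeR adjusted p 0.063 to 0.15). Cacna1g, the T-type calcium channel of thalamic bursts, measured 243 ± 17.7 against 298 ± 62.1 CPM (edgeR adjusted p = 0.84).

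Signalling genes included Rgs4. It encodes a regulator that shortens signals of G-protein-coupled receptors and lies on chromosome 1, 169741477 to 169747642, minus strand (GRCm38, GENCODE vM21). Rgs4 measured 631, 636, 566 and 599 CPM in visual sums and 200, 203, 177, 178 and 149 CPM in auditory sums. The lowest visual sum was far above the highest auditory sum, and the log2 fold change was 2.04 ± 0.20 (edgeR adjusted p = 8.4e-06). Of 34 genes for G-protein and second-messenger signalling, Rgs4 and Prkcd were higher and Pde1a and Dgkg lower in visual neurons (median log2 fold change -0.28).

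Pde1a, a calcium-activated phosphodiesterase, had 2 UMIs in visual and 300 in auditory cells, a pooled ratio of 133 (95% counting interval 36.4 to 1100; edgeR adjusted p = 0.00018). Auditory replicate 5 held 30.1 CPM of it and the other auditory sums 1.32 to 7.29 CPM. Dgkg, a diacylglycerol kinase, measured 1.22, 6.54, 2.29 and 4.20 CPM against 18.5, 24.7, 25.3, 15.1 and 30.1 CPM (edgeR adjusted p = 0.015; 0.075 without auditory replicate 5, 0.059 without visual replicate 1). Rgs4 and Pde1a passed without any single sum.

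Cell adhesion and matrix genes were called in both directions. Of 25 matrix genes, 4 were higher and 3 lower in visual neurons (all genes tested: 0.401% and 0.540%). Sparcl1, the matrix protein hevin, which promotes thalamocortical synapses, measured 1943, 1458, 1318 and 1338 CPM in visual sums and 401, 295, 180, 236 and 262 CPM in auditory sums (log2 fold change 2.53 ± 0.30, edgeR adjusted p = 6.9e-05). It is made by astrocytes as well, and the summed astrocyte markers of both groups overlapped (189 to 216 against 155 to 257 CPM). Auditory replicate 5, the auditory sum of batch 3, held 155 CPM of these markers, below every visual sum. The part of astrocyte RNA in the Sparcl1 difference was not tested. A UMI of Sparcl1 was in 96.8% of visual and 63.2% of auditory cells (95.9% and 50.3% thinned). Hs6st2, which sulphates heparan chains, measured 88.5, 51.8, 71.7 and 63.7 CPM against 27.5, 27.1, 12.6, 21.5 and 26.6 CPM (edgeR adjusted p = 0.013; 0.057 without auditory replicate 5, 0.055 without visual replicate 1).

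Bcan, the proteoglycan brevican, measured 29.0, 15.7, 5.83 and 20.5 CPM against 0.229, 0.312, 1.94, 6.58 and 0.695 CPM, with overlap between visual replicate 3 and auditory replicate 4 (edgeR adjusted p = 0.0061; 0.056 without auditory replicate 5). Lamb1, a laminin chain, measured 13.3 ± 1.72 against 5.34 ± 2.08 CPM (edgeR adjusted p = 0.044), and its call was lost on leaving out any of the 9 sums (adjusted p 0.05 to 0.11); it held 5.33 CPM in auditory replicate 5. The lower matrix genes beside Fbln1 were the collagens Col12a1 (1.17 ± 1.33 against 11.9 ± 4.62 CPM, edgeR adjusted p = 0.013; 0.11 without auditory replicate 5, 0.068 without visual replicate 1) and Col24a1 (0.488 ± 0.280 against 4.75 ± 2.60 CPM, adjusted p = 0.022). Auditory replicate 5 held 19.9 CPM of Col12a1 and 4.63 CPM of Col24a1. The call of Col24a1 was lost without auditory replicate 1 or visual replicate 1, 2 or 3 (edgeR adjusted p 0.054 to 0.076).

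Tenm1, a teneurin that binds partners across the synapse, measured 97.5, 153, 120 and 126.1 CPM in visual sums and 321, 362, 292, 250 and 315 CPM in auditory sums (log2 fold change -1.27 ± 0.13, edgeR adjusted p = 2.2e-05). The other teneurin genes did not pass in edgeR: Tenm2 was at 476 against 375 CPM (edgeR adjusted p = 0.98), Tenm3 at 233 against 140 CPM (0.092) and Tenm4 at 269 against 266 CPM (0.9). DESeq2 called Tenm3. Cdh8, a classical cadherin, measured 118, 114, 110 and 104 CPM against 19.6, 36.8, 39.2, 20.4 and 14.1 CPM (2.06 ± 0.32, edgeR adjusted p = 0.0019), and was the 1 of 27 cadherin genes to pass in edgeR on all sums, where DESeq2 called 7 and the batch 3 fit 2. Lrrtm2, a postsynaptic organizer, measured 158, 197, 137 and 135 CPM against 53.9, 89.5, 81.0, 80.8 and 72.7 CPM (1.19 ± 0.21, edgeR adjusted p = 0.0054). Adgrl3, a latrophilin, measured 99.5, 113, 95.4 and 91.1 CPM against 168, 166, 119, 148 and 193 CPM (-0.88 ± 0.19, edgeR adjusted p = 0.022). Tenm1, Cdh8 and Lrrtm2 passed without any single sum. Without both sums of the shared identifier Cdh8 and Lrrtm2 missed (edgeR adjusted p = 0.067 and 0.091), and Lrrtm2 missed with visual and auditory sums alone and the batch term (0.14). Adgrl3 missed without auditory replicate 5 or visual replicate 1, 3 or 4 (edgeR adjusted p 0.06 to 0.17).

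Of 42 axon guidance genes, 3 were higher and 0 lower in visual neurons (all genes tested: 0.401% and 0.540%), with a median log2 fold change of 0.02. Sema6d, a transmembrane semaphorin, measured 68.4, 52.0, 39.4 and 29.3 CPM against 5.04, 6.00, 15.7, 23.9 and 7.18 CPM (edgeR adjusted p = 0.016; 0.11 without auditory replicate 5, 0.054 without visual replicate 1). Sema7a, a semaphorin anchored to the membrane by lipid, measured 8.62, 10.1, 9.37 and 14.2 CPM against 0.572, 0.546, 1.13, 5.27 and 1.62 CPM (edgeR adjusted p = 0.022; 0.11 without auditory replicate 5, 0.051 without visual replicate 4). Epha7, an ephrin receptor, measured 81.7, 41.5, 50.0 and 76.7 CPM against 14.5, 20.9, 15.7, 49.4 and 16.2 CPM and overlapped (edgeR adjusted p = 0.049). The call of Epha7 was lost without auditory replicate 1, 3 or 5 or visual replicate 1, 3 or 4 (edgeR adjusted p 0.05 to 0.28).

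Transcription factors of thalamic patterning gave 2 calls among 30 genes, both lower in visual neurons. Gbx2, a homeobox factor needed for thalamic neurons to mature, measured 15.6, 63.8, 71.5 and 77.1 CPM in visual sums and 249, 285, 343, 314 and 253 CPM in auditory sums (log2 fold change -2.40 ± 0.37, edgeR adjusted p = 0.0017). A UMI of Gbx2 was found in 32.9% of visual and 85.0% of auditory cells (22.99% and 78.7% thinned), and its call held without any single sum but not with visual and auditory sums alone and the batch term (edgeR adjusted p = 0.077). Etv1, an ETS factor, measured 43.2, 63.8, 77.5 and 49.0 CPM against 126.3, 139, 152, 119 and 186 CPM (-1.44 ± 0.33, edgeR adjusted p = 0.033). That call was lost without auditory replicate 3 or 5 or visual replicate 1, 2 or 4 (edgeR adjusted p 0.058 to 0.27). Zic4 (75.7 against 36.4 CPM), Zic1 (248 against 154 CPM) and Mef2c (463 against 227 CPM) had every visual sum above every auditory sum without passing in edgeR on all sums (edgeR adjusted p = 0.11, 0.14 and 0.089). DESeq2 called Zic4 and Zic1 on all sums. In batch 3 alone Zic1 and Mef2c were higher in visual neurons (edgeR adjusted p = 0.0037 and 0.018).

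The remaining genes of the 15 with the largest folds higher were Heg1, Wnt9b, Tmem132c, Cwh43, Ccdc141, Rrp15, Fstl1, Sox5 and Fam19a2. Heg1, a membrane protein of cell junctions, measured 80.1, 69.7, 55.8 and 62.7 CPM in visual sums and 3.89, 9.12, 18.2, 18 and 3.01 CPM in auditory sums (log2 fold change 3.62 ± 0.39, edgeR adjusted p = 2.2e-05). Wnt9b, a secreted Wnt ligand, measured 49.4, 27.3, 33.3 and 37.5 CPM against 5.61, 0.779, 1.94, 7.24 and 1.62 CPM (edgeR adjusted p = 0.0026). Sox5, a transcription factor, measured 84.4, 59.2, 55.2 and 57.2 CPM against 16.7, 0.701, 5.83, 5.71 and 6.49 CPM (edgeR adjusted p = 0.023).

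Fstl1, a secreted follistatin-like protein, measured 66.0 ± 27.6 against 14.9 ± 13.3 CPM (edgeR adjusted p = 0.0017), and the secreted Fam19a2 27.8 ± 6.60 against 2.97 ± 2.45 CPM (adjusted p = 0.0028), with 5.33 and 6.49 CPM in auditory replicate 5. Tmem132c, Cwh43, Ccdc141 and Rrp15 had visual means of 15.8 to 35.0 CPM and auditory means of 1.55 to 3.96 CPM, with 0.232, 0, 1.39 and 0.695 CPM in auditory replicate 5 (edgeR adjusted p = 0.014, 0.016, 0.038 and 0.0054). None of the 9 genes overlapped between groups. Heg1, Wnt9b, Fstl1 and Fam19a2 passed without any single sum. Without both sums of the shared identifier Wnt9b and Fstl1 missed (edgeR adjusted p = 0.091 and 0.082), and with visual and auditory sums alone and the batch term Wnt9b and Fam19a2 missed (0.11 and 0.2). Without auditory replicate 5 the edgeR adjusted p was 0.1 for Tmem132c and Cwh43, 0.18 for Ccdc141, 0.06 for Rrp15 and 0.16 for Sox5. Cwh43 and Sox5 also missed without visual replicate 1 (0.059 and 0.069), and Ccdc141 without any sum but auditory replicate 3.

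Rbfox3, which encodes the neuronal antigen NeuN, differed by less than most called genes. It measured 177, 197, 186 and 160 CPM in visual sums and 252, 233, 323, 236 and 341 CPM in auditory sums (log2 fold change -0.80 ± 0.14, edgeR adjusted p = 0.006; 0.1 without auditory replicate 5). It is on the list of thalamic projection neuron markers with Prkcd. The other 8 markers of that list did not pass, among them the thalamic transcription factor gene Tcf7l2 (788 ± 38.2 against 1253 ± 215 CPM, edgeR adjusted p = 0.17) and Slc17a6, the vesicular glutamate transporter of the thalamus (672 against 721 CPM, adjusted p = 0.92). Gad2, which makes GABA, was called lower (edgeR adjusted p = 0.022), but it measured 0.0763, 0, 0.208 and 0.240 CPM against 2.63, 0.468, 0, 0 and 21.3 CPM, and 95.7% of the UMIs in auditory replicate 5 came from 1 cell. Without that sum its edgeR adjusted p was 0.91, and it was also lost without any visual sum (0.06 to 0.12).

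Some lists gave 0 calls in edgeR. Over all 17211 genes tested, 2048 had an unadjusted p under 0.05. Of 24 synapse organizer genes 8 had an unadjusted p under 0.05, of 29 genes for vesicle release and transmitter transport 11, of 16 immediate early genes 3 and of 16 glycolysis genes 6. DESeq2 called 0, 4, 0 and 2 of these lists, the 4 being Rims2, Slc17a8, Slc1a1 and Vamp1 and the 2 being Aldoc and Ldhb. The lists of astrocyte, oligodendrocyte, oligodendrocyte precursor, microglia, endothelial and mural, habenula and pyramidal neuron markers also gave 0 calls, with 3 of their 36 tested genes at an unadjusted p under 0.05 and 1, Gjb6, called by DESeq2.

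The authors' clusters within each system show in which cells these genes lay. Cells of the visual system fell into Vis_1 (101 cells), Vis_2 (193) and Vis_3 (135), and those of the auditory system into Aud_1 (101), Aud_2 (212) and Aud_3 (63); 10 cells had no cluster. Since the cells were clustered on their expression, levels by cluster are a description and were not tested. Genes lower in visual neurons differed in their spread over the auditory clusters. Rprm, Rprml, Col12a1 and Ngb had 87.8%, 90.4%, 84.1% and 79.1% of their auditory UMIs in Aud_3, which held 16.6% of auditory cells. Gulp1 had 82.2% and Nppc 71.1% in Aud_2, which held 55.8% of auditory cells. By level neither was particular to Aud_2. Gulp1 measured 0.112, 28.2 and 23.9 CPM in Aud_1, Aud_2 and Aud_3, and Nppc 19.5, 105 and 128 CPM. Tenm1, Gbx2 and Scg2 were found in every auditory cluster. Gbx2 held 218, 289 and 378 CPM in Aud_1, Aud_2 and Aud_3 and 22.4, 20.2 and 131 CPM in Vis_1, Vis_2 and Vis_3. Scg2 was highest in Aud_3 and Vis_3, at 1523, 1755 and 4090 CPM and 494, 393 and 1079 CPM in the same order.

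Higher genes were likewise uneven among the visual clusters. Sema6d had 72.1%, Tmem132c 69.0%, Cwh43 69.0% and Pnoc 68.3% of their visual UMIs in Vis_2, which held 44.4% of visual cells. By level the clusters were less far apart. In Vis_1, Vis_2 and Vis_3 Sema6d measured 41.4, 72.9 and 14.35 CPM and Tmem132c 35.9, 48.1 and 7.89 CPM. Cwh43 measured 4.26, 25.5 and 18.9 CPM and Pnoc 41.4, 68.4 and 21.7 CPM. Fstl1 measured 130 CPM in Vis_1, 81.6 in Vis_2 and 6.08 in Vis_3, and Bcan 42.2, 18.4 and 4.53 CPM. Rgs4 was higher in each visual cluster (711, 653 and 442 CPM) than in each auditory cluster (195, 196 and 149 CPM). Prkcd was not: Aud_1 at 1719 CPM lay above Vis_3 at 760 CPM, and Aud_3 held 40.8 CPM. Vis_3 held 8 of the 155 cells of visual replicate 1 and 67 of the 134 cells of visual replicate 4.

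**Figure D4:**
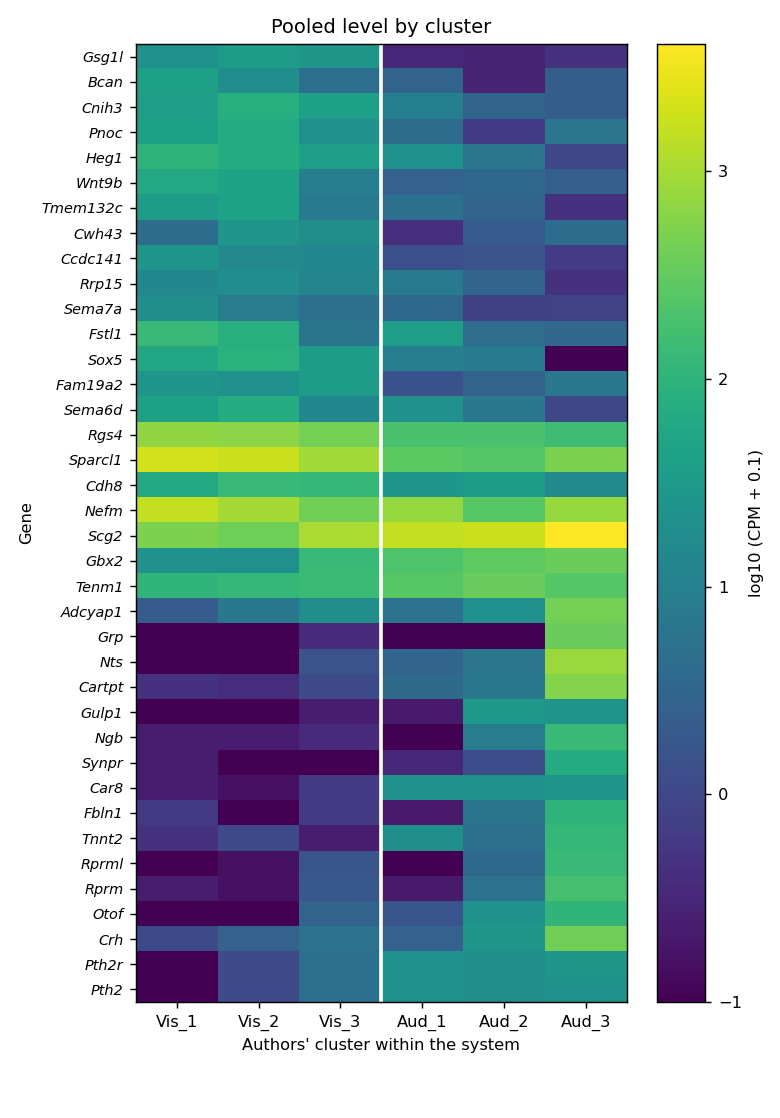
Pooled level, as log10 of CPM plus 0.1, of part of the named genes (rows) in the authors' 3 visual and 3 auditory clusters (columns). Rows are the 15 genes with the largest fold in each direction and Rgs4, Sparcl1, Cdh8, Nefm, Scg2, Gbx2, Tenm1 and Adcyap1. The white line parts the systems; Rgs4 and Sparcl1 are brighter in each visual cluster, and Grp, Nts and Cartpt are brightest in Aud_3, at 355, 842 and 573 CPM.

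A last comparison asked whether the systems differ among cells of 1 class. Cells were divided into 3 classes by their most abundant anchor gene in CPM (Tnnt1, Necab1 or Calb2), genes that mark core, intermediate and midline-like thalamic neurons. Tnnt1-anchored cells made up 39.5 ± 6.11% of visual and 23.98 ± 13.8% of auditory cells (exact permutation p = 0.0952, adjusted 0.19 over 6 tests), Necab1-anchored cells 22.7 ± 2.16% and 12.97 ± 3.19% (exact p = 0.0159, adjusted 0.0952) and Calb2-anchored cells 35.2 ± 6.83% and 62.8 ± 16.4% (exact p = 0.0317, adjusted 0.0952). Necab1-anchored shares did not overlap (20.3 to 25.4% against 10.5 to 17.6%), at the smallest p that 4 against 5 sums allow. Over 6 tests a single share at that p cannot pass, so the adjusted values say little here.

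Among Tnnt1-anchored cells (179 visual, 92 auditory), 8 of 13877 genes were higher in visual sums (0.0576%) and 10 lower (0.0721%) in edgeR. Among Necab1-anchored cells (100 and 49), 7 of 14169 were higher (0.0494%) and 2 lower (0.0141%). Among Calb2-anchored cells (145 and 238), 14 of 13223 were higher (0.106%) and 23 lower (0.174%). Sums of as few as 5 cells entered these fits. With a minimum of 10 cells the counts were 43, 18 and 35, and 16, 6 and 22 of these were among the calls above. The 35 of Calb2-anchored cells were 7 higher and 28 lower.

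Tox, a nuclear protein of the HMG box family chosen here after its values were seen, was the 1 gene called in all 3 classes. It measured 29.6, 42.2, 57.3 and 39.6 CPM in visual sums and 272, 280, 245, 288 and 215 CPM in auditory sums over all cells. Its log2 fold changes were -2.65 ± 0.35, -1.96 ± 0.34 and -2.05 ± 0.41 in Tnnt1-, Necab1- and Calb2-anchored cells (edgeR adjusted p = 0.0025, 0.016 and 0.036). Rgs4 passed among Tnnt1- and Calb2-anchored cells (1.94 ± 0.29 and 2.43 ± 0.26, edgeR adjusted p = 0.0041 and 4.6e-05), as did Sparcl1 (3.30 ± 0.49 and 2.17 ± 0.27, adjusted p = 0.0041 and 0.00026), Scg2 (-1.42 ± 0.20 and -1.67 ± 0.30, adjusted p = 0.003 and 0.018) and Gbx2 (-2.80 ± 0.52 and -2.34 ± 0.48, adjusted p = 0.026 and 0.037). Whether folds differ between classes was not tested.

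Calb1 was lower in visual neurons among Tnnt1-anchored cells (log2 fold change -1.71 ± 0.26, edgeR adjusted p = 0.0042), although it did not pass over all cells. Cnih3, Cdh8, Heg1 and Nefm were higher among Necab1-anchored cells (6.33 ± 1.14, 4.10 ± 0.55, 5.94 ± 0.94 and 1.68 ± 0.24; edgeR adjusted p = 0.012, 0.0016, 0.0023 and 0.0023). Among peptide genes, Nts, Cartpt and Grp were lower in Calb2-anchored cells (edgeR adjusted p = 0.00022, 7.6e-08 and 0.0012). In the same cells Gabra4, Grin2a, Sema6d and Gsg1l were higher (1.52 ± 0.22, 1.59 ± 0.32, 3.88 ± 0.63 and 5.91 ± 1.21; edgeR adjusted p = 0.0022, 0.036, 0.0055 and 0.035).

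**Figure D5:**
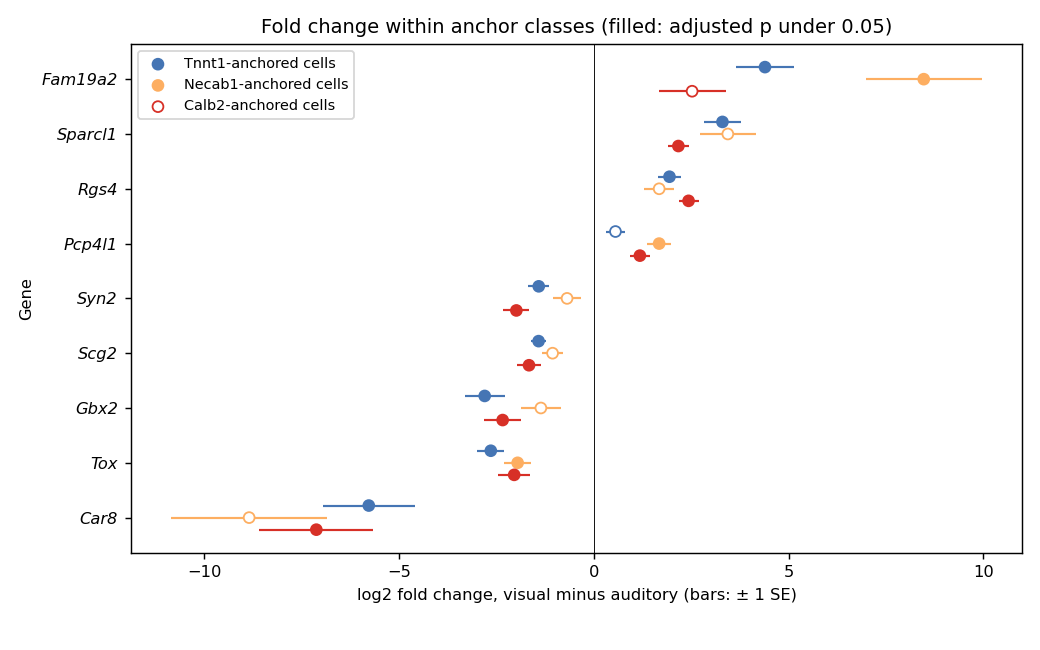
Log2 fold change (visual minus auditory) with 1 SE for the 9 genes called in at least 2 of the 3 anchor classes, by class. Filled points passed edgeR's test at an adjusted p under 0.05; Tox is filled in all 3 classes, and each gene has the same sign in each class.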

How the data were processed

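Per gene and cell, the authors deposited counts of UMIs, not normalized; their cell table lists plates, animals, ages, sort dates, projections and clusters (other, as text). The submitters' processing notes name cutadapt 1.16, Picard 1.12, STAR 2.5.3 and build mm10; annotation and counting rule are not stated there. The members and gene lists were chosen with earlier results of these data known.

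Counts of 36589 genes were summed per animal identifier and projection; the 90 spike-ins stayed out. The 21 sums were fitted with edgeR 4.0.16 (R 4.3.3): filterByExpr, TMM, a trended dispersion, glmQLFit and glmQLFTest, system plus batch, 14 residual degrees of freedom (4 in batch 3), Benjamini-Hochberg at 0.05. Scripts were tested on simulated data. SE is the absolute log2 fold change divided by the root of F. CPM are plain shares of a sum's UMIs. Floors and intervals cover counting error only. Named genes are the 15 with the largest fold in each direction (called, at least 10 CPM, no unnamed gene models) and called members of 29 lists. All 815 cells entered; no doublet caller was run on these hand-picked cells. No sample was dropped or imputed. The depth of a cell was 20614 to 391991 UMIs, and 372 of 375 barcodes were used on more than 1 plate. Alternatives were the batch term, the samples fitted, DESeq2 1.42.0, the scaling, the filter, the dispersion, thinning, cells left out, sums per sort date and leaving out sums. Where an identifier may not be 1 animal, p-values measure only the spread between these sums.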

Additional observations from a re-analysis of the deposited data

Results flagged for a closer look

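Among the 63 named genes, each group of sums was searched for a sum that stood apart, by Dixon's test of the gap to the nearest sum over the group's range. This gave 15 such sums; chance flags about 1 in 20 groups, and the genes share their sums.

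Auditory replicate 5, the auditory sum of batch 3, stood above the other auditory sums in Cartpt (367.4 CPM against 25.07 to 114.6), Pde1a (30.11 CPM against 1.317 to 7.292), Col12a1 (19.92 CPM against 8.356 to 10.91) and Gad2 (21.31 CPM against 0 to 2.633). Auditory replicate 4 stood above the others in Bcan (6.584 CPM against 0.2289 to 1.944), Sema7a (5.268 CPM against 0.5455 to 1.621) and Epha7 (49.38 CPM against 14.54 to 20.89). Auditory replicate 3 stood above the others in Ccdc141 (4.861 CPM against 0 to 1.39).

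Among visual sums, replicate 1 stood above the others in Sox5 (84.36 CPM against 55.2 to 59.2) and replicate 4 in Kcnd2 (276.6 CPM against 208.8 to 217.5). Replicate 3 stood above the others in Cartpt (1.666 CPM against 0.1635 to 0.3814) and Fbln1 (0.8332 CPM against 0.1199 to 0.1635). The values of Grp in visual replicate 4 (0.2398 CPM), Gulp1 in replicate 3 (0.2083 CPM) and Synpr in replicate 4 (0.1199 CPM) stood apart only because the other visual sums were at 0, and they rest on 1 or 2 UMIs.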

How the results depend on the processing

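The count of 162 genes on all sums was 333 with visual and auditory sums alone and no batch term, 372 without the batch term, 435 with DESeq2, 333 with no filter on low counts, 245 without batch 1 and 25 (8 higher, 17 lower) without both sums of the shared identifier. Leaving out 1 sum gave 43 (without auditory replicate 5) to 168 (without auditory replicate 2). The 166 genes of batch 3 were 585 (406 higher, 179 lower) with DESeq2, 98 with visual and auditory sums of batch 3 only, and 78 to 149 without 1 visual sum; with 1 dispersion 66 were higher and 145 lower, against 98 and 68. With 1 dispersion the anchor classes gave 10 (Tnnt1) and 59 (Calb2) genes, and with 10 cells a sum 43 (Tnnt1) and 18 (Necab1). The Necab1 class gave 11 with 1 dispersion (5 higher, 6 lower), and 5 of them were among its 9 main calls. The cause of these shifts was not tested, beyond the fewer sums.

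Over 24 alternatives the 63 named genes gave 1507 values: 1233 kept their direction and call, 274 kept their direction without passing, and 0 changed direction; DESeq2 gave Cartpt no adjusted p. In 42 genes the call was lost without auditory replicate 5, in 23 without visual replicate 1 and in 51 without both; 18 passed without any single sum. Heg1, Ngb, Car8, Scg2, Tenm1, Rgs4, Pde1a and Sparcl1 passed in every alternative. The median fold over all genes lay between -0.043 and 0.032 over the scalings. With 1 auditory sum in batch 3, that animal and the batch 3 auditory value cannot be told apart. No paired analysis was possible because only 1 identifier holds both visual and auditory cells and replicate numbers merely name the sums.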
